A study of Mus musculus with 8 samples.

Results

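The 3 pumps that return calcium to the sarcoplasmic reticulum (SR), Atp2a1, Atp2a2 and Atp2a3, and the genes of 3 small proteins that set their activity, Pln, Sln and Sri, were followed in mouse hearts that had lost Mettl3 in adult cardiomyocytes. These 6 genes were chosen by symbol, each matched 1 row of the table, and all 6 passed the minimum for a test, a mean value of 1, as did 20313 of the 23045 genes listed. The question was whether the transcripts of SR calcium uptake change with the loss of METTL3, which writes N6-methyladenosine (m6A) into RNA. Total RNA of the heart was sequenced as stranded libraries, 4 from WT mice (Mettl3lox/lox, with loxP sites at both Mettl3 alleles and no Cre) and 4 from Mettl3 KO mice (Mettl3lox/lox:alphaMHC-MerCreMerpos). Per the study's methods, mice of both genotypes were 10 to 16 weeks old and received 100 µg tamoxifen per 1 g body weight on each of 7 days by intraperitoneal injection. The alphaMHC promoter drives the tamoxifen-dependent MerCreMer recombinase in cardiomyocytes only, so other cells of the heart keep Mettl3. Because WT mice carried no MerCreMer, an effect of active Cre and an effect of Mettl3 loss cannot be told apart. The time between tamoxifen and sampling and the sex of the mice are not given in the sources used here. Nothing in the labels states that each library came from its own animal, so p-values measure the spread between these libraries, which may be technical in part.

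In each heartbeat, calcium leaves the SR through the ryanodine receptor, switches on contraction and is pumped back by the SERCA ATPase, whose rate sets how fast the muscle relaxes. The heart relies on SERCA2a from Atp2a2, fast skeletal muscle on SERCA1 from Atp2a1, while SERCA3 from Atp2a3 is found mainly in endothelial and blood cells. Phospholamban (Pln) lowers the calcium affinity of the pump until protein kinase A or CaMKII phosphorylates it, sarcolipin (Sln) is its relative in atria and skeletal muscle, and sorcin (Sri) is a calcium-binding protein that acts on both the pump and the ryanodine receptor.

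Values below are normalized read counts, the authors' read numbers after scaling for library depth, rounded to whole numbers. Their sum per library was 2839589 to 2916986. An estimate of the underlying read number from the steps between low values gave 2631904 to 3061199 per library, so that 3 reads, the limit that a count of 0 allows, equalled 2.78 to 3.33 normalized read counts (counting error only). Mettl3 itself had 105, 133, 118 and 107 in the WT libraries and 74, 68, 69 and 78 in the Mettl3 KO libraries, a log2 fold change of -0.67 with SE 0.10 (adjusted p = 0.000184 by limma), with no overlap. Among the defining cardiomyocyte markers (Myh6, Tnnt2, Tnni3, Actc1, Myl2, Myl3, Actn2), 0 of 7 passed the test, and their summed values of 13014 to 14122 in WT and 13107 to 14670 in Mettl3 KO libraries fit the labelled tissue.

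Of the 6 genes, only Sln passed the test, being higher in Mettl3 KO hearts. That is 1 of 6, read against 7.91% of all tested genes with a limma adjusted p under 0.05 in either direction. In 0 of the 6 did the values of the genotypes lie apart without overlap, against 11.5% of all tested genes. The median log2 fold change of the 6 was -0.00, against -0.01 over all tested genes.

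**Figure D1:**
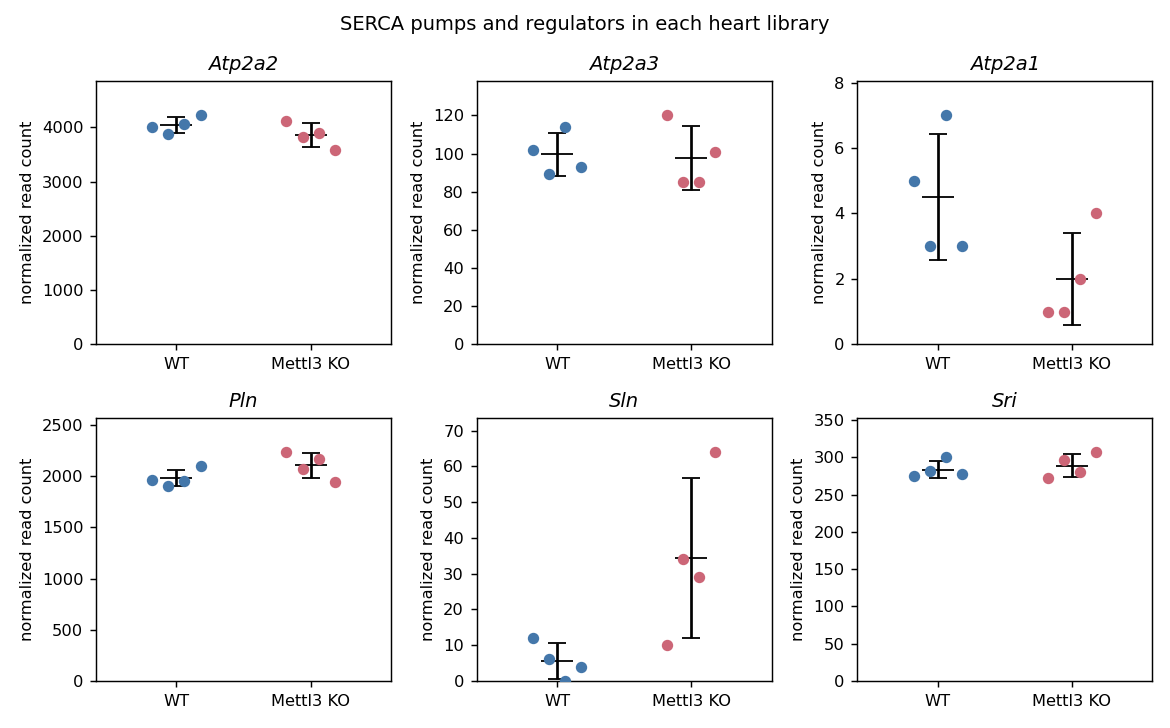
Normalized read count (vertical axis, from 0) of each SERCA pump and regulator in the 4 WT and 4 Mettl3 KO libraries; points are libraries, and the bar and whiskers are mean and SD. Sln rose from 0 to 12 in WT to 10 to 64 in Mettl3 KO libraries, and the 2 genotypes overlapped in all 6 genes.

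Among the pumps, Atp2a2 (ENSMUSG00000029467, mm39 chromosome 5, 122591576 to 122640288, minus strand) carried nearly all of the transcript. It had 4007, 3883, 4069 and 4221 across WT and 4118, 3823, 3900 and 3585 across Mettl3 KO libraries. The genotypes overlapped, with Mettl3 KO replicate 1 above 3 of the WT libraries and Mettl3 KO replicates 2 and 4 below every WT library. The means of 4045 ± 141 (SD, n = 4) and 3857 ± 220 (SD, n = 4) differed by a log2 fold change of -0.07 with SE 0.04 (adjusted p = 0.316 by limma). The 95% confidence interval of the change ran from -9.79% to 0.605%.

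Atp2a3 (ENSMUSG00000020788, chromosome 11, 72851995 to 72883870, plus strand) was the second pump by level. Its values were 102, 89, 114 and 93 across WT and 120, 85, 85 and 101 across Mettl3 KO libraries, interleaved between the genotypes. The log2 fold change was -0.03 with SE 0.12 (95% confidence interval -0.27 to 0.21, adjusted p = 0.925 by limma). SERCA3 is known from endothelial cells, and the endothelial markers (Pecam1, Cdh5, Kdr, Tek, Emcn, Tie1, Egfl7, Robo4) summed to 4448 to 4691 in WT and 3875 to 4232 in Mettl3 KO libraries, with 3 of 8 lower and 0 higher. Its interval is wide enough to hold the median endothelial marker change of -0.20. In bulk tissue, fewer cells of a type and less RNA per cell cannot be told apart.

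Atp2a1 (ENSMUSG00000030730, chromosome 7, 126045030 to 126062280, minus strand), the fast skeletal muscle pump, was close to the detection limit. It had 5, 3, 7 and 3 across WT and 1, 1, 2 and 4 across Mettl3 KO libraries. Over each genotype this came to an estimated 18 reads in WT and 8 in Mettl3 KO, a ratio of 0.46 with an exact 95% counting interval of 0.173 to 1.11. The fitted log2 fold change of -0.92 (SE 0.44) had an unadjusted limma p of 0.0478 and an adjusted p of 0.237, so a lower level was not detectable at this depth. With a pseudocount of 5 the log2 fold change was -0.44. Summed skeletal muscle markers overlapped between the genotypes, at 45 to 108 in WT and 45 to 83 in Mettl3 KO libraries. Myl1 carried much of the highest sums, with 63 of 108 in WT replicate 3 and 42 of 83 in Mettl3 KO replicate 3. Of 9 tested markers 1 was lower, Tnni2, at 6, 5, 7 and 2 across WT and 1, 0, 2 and 1 across Mettl3 KO libraries. Its log2 fold change was -1.60 with SE 0.47 (adjusted p = 0.0381 by limma).

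Levels of different genes were compared per kilobase of annotated exon, since longer transcripts yield more reads. On that scale Atp2a2 made up 96.6% to 97.4% of the summed pumps in WT libraries and 96.7% to 97.5% in Mettl3 KO libraries. Atp2a3 contributed 2.47% to 3.12% and 2.45% to 3.25%, and Atp2a1 0.121% to 0.291% and 0.0411% to 0.189%, respectively. Atp2a2 lies near a limit on reads per base, described below, that the other pumps do not approach, so its share is a lower bound and theirs are upper bounds. The order of the pumps was the same in every library.

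Phospholamban and sarcolipin are short peptides that sit in the SR membrane beside the pump. Their coding sequences, from the Pln-201 and Sln-201 transcripts of the GENCODE M21 mouse annotation, are shown because the results below turn on these 2 genes. Capitals mark the longest run of bases that both share, 8 bases in the reading frame of each, at codons 32 to 34 of Pln and codons 9 to 11 of Sln, with the start codon counted as 1.
Pln: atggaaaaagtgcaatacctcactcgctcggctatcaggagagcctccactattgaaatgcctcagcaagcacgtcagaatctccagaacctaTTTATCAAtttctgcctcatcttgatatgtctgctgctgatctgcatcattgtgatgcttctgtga
Sln: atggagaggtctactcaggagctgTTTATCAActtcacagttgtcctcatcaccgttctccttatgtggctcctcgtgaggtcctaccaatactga
Phospholamban has 52 codons before the stop codon and sarcolipin 31. Most of each transcript is untranslated, as the coding part takes 159 of the 2334 bases of Pln-201 and 96 of the 1318 bases of Sln-201. The shared run is far shorter than the 72 bases of a sequencing read.

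Pln (ENSMUSG00000038583, chromosome 10, 53213763 to 53222083, plus strand) had 1965, 1909, 1956 and 2097 across WT and 2237, 2073, 2168 and 1945 across Mettl3 KO libraries. Mettl3 KO replicates 1 and 3 lay above every WT library, while replicate 4 lay below 3 of them. The means were 1982 ± 80.7 and 2106 ± 127 (SD, n = 4 each), with a log2 fold change of 0.09 with SE 0.04 (adjusted p = 0.252 by limma). The 95% confidence interval ran from -0.00 to 0.17 on the log2 scale, or -0.0916% to 12.8%. Quantile normalization, which sets values by rank, gave 0.12 with a limma adjusted p of 0.0271, and placed Atp2a2 at -0.00. Equal library sums, the upper quartile and voom left Pln short of the threshold (limma adjusted p of 0.249, 0.347 and 0.181). The annotation lists Gm47644 and Cep85l on the opposite strand of Pln, and counting was by strand.

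Pln and Atp2a2 were among the most densely read genes, and this limits how their values can be read. The authors removed duplicate reads, which for single-end reads are those that start at the same base on the same strand, so a transcript cannot gain more than about 1 read per base. Pln reached 0.724 to 0.76 recovered reads per base of annotated exon and Atp2a2 0.611 to 0.697. Only 20 of 19055 genes with a matched length (0.105%) averaged 0.5 or more, and the median gene had 0.0138. Before depth scaling, Pln had 2045, 2059, 2039 and 1998 recovered reads across WT and 2018, 2097, 2073 and 2091 across Mettl3 KO libraries. Their SD within a genotype was 31.4, less than the 45.3 expected from counting alone at that mean. Actc1 was likewise below that expectation (15.3 against 35.3), while Atp2a2 (87.2 against 63.0) and Myh6 (80.2 against 72.2) were above it. Once scaled, the within-genotype deviations of Pln followed the scaling factor of the library with Pearson's r = 0.992 and those of Atp2a2 with r = 0.973, a description over 8 libraries in which the factor enters both sides. Recovered reads of Atp2a2 were 4170, 4188, 4241 and 4022 across WT and 3715, 3867, 3730 and 3854 across Mettl3 KO libraries, so that, before scaling for depth, every Mettl3 KO library was below every WT library. Near such a limit a difference in transcript number gives a smaller difference in reads, and levels per kilobase of exon, 718 for Pln and 665 for Atp2a2 in WT, cannot be ranked. The same limit bears on the cardiomyocyte markers Myh6 at 0.753 to 0.79 and Actc1 at 0.751 to 0.786 reads per base. To a lesser degree it may bear on the other markers, Actn2 (0.497 to 0.551), Myl2 (0.382 to 0.433), Myl3 (0.393 to 0.428), Tnni3 (0.355 to 0.416) and Tnnt2 (0.345 to 0.386). The same holds for SR genes described further on, Hrc at 0.481 to 0.59, Casq2 at 0.326 to 0.411, Srl at 0.337 to 0.395 and Ryr2 at 0.282 to 0.377. How far the limit acts at these lower densities was not tested. Deviations of Srl, Casq2, Ryr2 and Hrc followed the scaling factor with r = 0.84, 0.683, 0.618 and 0.567. Sparser genes reached similar values, with Canx (0.202 to 0.283 reads per base) at 0.693 and Slc8a1 (0.135 to 0.156) at 0.691. Such an r therefore does not mark the limit by itself. The SD of recovered reads was above counting error in Srl (74.1 against 44.6), Casq2 (46.7 against 32.1), Ryr2 (504 against 96.1) and Hrc (76.8 against 37.4). Sln, Sri, Atp2a3 and Atp2a1 stayed at or below 0.068 reads per base.

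The inhibitor was then set against its pump within each library, which removes the scaling factor. The ratio of Pln to Atp2a2 normalized read counts was 0.490, 0.492, 0.481 and 0.497 across WT and 0.543, 0.542, 0.556 and 0.543 across Mettl3 KO libraries. Every Mettl3 KO library lay above every WT library, and the gap between the genotypes was wider than the range within either. The mean ratio was 0.490 ± 0.00672 in WT and 0.546 ± 0.00663 in Mettl3 KO (SD, n = 4 each), 11.5% higher, or 0.16 on the log2 scale (SE 0.0132). A two-sided exact permutation test over the 70 assignments of libraries gave p = 0.0286, the smallest that 4 against 4 libraries allow. Adjusted by Benjamini-Hochberg over the 4 ratios examined it was 0.114, which cannot pass 0.05 in this design unless other ratios come near that smallest p. In a limma fit over all genes taken relative to Atp2a2, an alternative chosen after seeing the data, Pln was higher by 0.16 (95% confidence interval 0.08 to 0.24, adjusted p = 0.0118). On that scale 12.3% of the genes had genotypes without overlap and 7.62% passed the test. Neither gene alone passed the test on the values as deposited, and the part that the limit on reads per base has in the ratio was not tested. Since recovered reads of Pln spread less than counting error, the range of the ratio within a genotype and its SE may be too small.

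**Figure D2:**
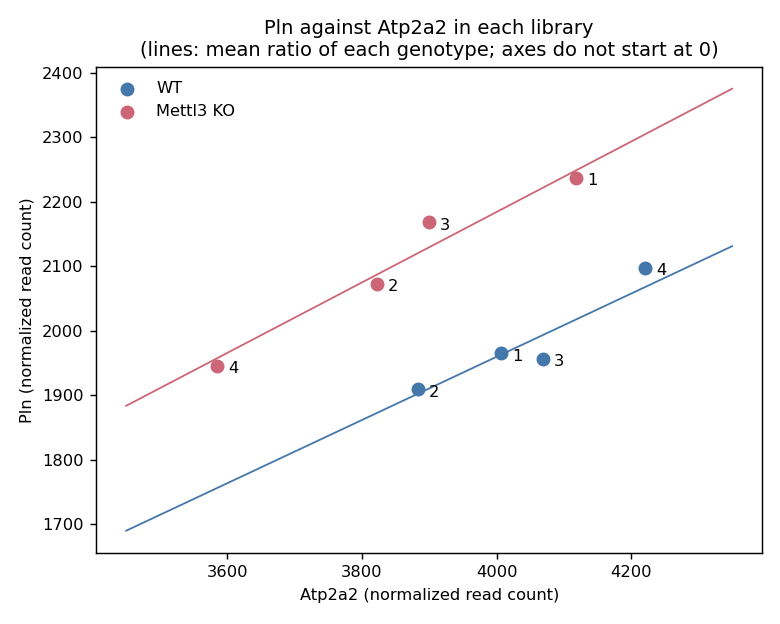
Pln against Atp2a2 in normalized read counts, 1 numbered point per library (WT blue, Mettl3 KO red), with lines for the mean ratio of each genotype; neither axis starts at 0. Libraries of a genotype spread along a line, at a mean ratio of 0.490 in WT and 0.546 in Mettl3 KO, and no library crosses to the other line.

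Sln (ENSMUSG00000042045, chromosome 9, 53757448 to 53761844, plus strand) was low in WT hearts and rose in Mettl3 KO hearts. It had 12, 6, 0 and 4 across WT and 10, 34, 29 and 64 across Mettl3 KO libraries. The groups overlapped through a single library, Mettl3 KO replicate 1, which lay below WT replicate 1, and Mettl3 KO replicates 2, 3 and 4 exceeded every WT library. Means were 5.5 ± 5.0 and 34.3 ± 22.4 (SD, n = 4 each), a 6.23-fold higher mean, and the fitted log2 fold change was 2.67 with SE 0.56 (95% confidence interval of the change 183% to 1330%, adjusted p = 0.00375 by limma). Leaving out each library in turn kept the call, with log2 fold changes of 1.94 (without WT replicate 3, where Sln was at 0) to 3.17. The size also depended on the pseudocount, at 1.84 with a pseudocount of 5 and 2.97 with 0.5, and the call was kept with both. Without the mean-variance trend the same change had a limma adjusted p of 0.170. Even in the highest library, Sln at 48.6 per kilobase of exon was far under Pln, which was at 705 or more per kilobase in each Mettl3 KO library.

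Markers of atrial muscle, where Sln is normally made, rose with it. Of the 7 atrial markers examined, 6 were higher (Myl7, Myl4, Bmp10, Dkk3, Pam, Nppa), 0 were lower and Kcnj3 did not pass, with a median log2 fold change of 1.64. Their summed values were 2307 to 2628 in WT and 2998 to 4010 in Mettl3 KO libraries. Pam and Kcnj3 held most of each sum, with 1463 and 616 of the 2307 in WT replicate 3. The sums therefore say little of the other markers. Myl7, the atrial myosin light chain, had 26, 21, 0 and 23 across WT and 23, 65, 90 and 119 across Mettl3 KO libraries. Bmp10, a growth factor of the atrial wall, was at 0 in all WT libraries and in Mettl3 KO replicate 1, and at 195, 158 and 358 in Mettl3 KO replicates 2, 3 and 4. Thus WT replicate 3, with Sln at 0, also had the lowest Myl7 and, at 17, the lowest Myl4, and the single Mettl3 KO library without Bmp10 was the one in which Sln overlapped WT. Not every atrial marker followed Sln there, since Mettl3 KO replicate 1 exceeded every WT library in Dkk3 (132 against at most 84), Pam (1840 against at most 1539) and Nppa (452 against at most 292). With the mean log2 level of the 7 markers as a covariate, the log2 fold change of Sln was -0.15 (limma adjusted p = 0.938). That mean level was 5.23 to 6.53 in WT and 6.70 to 8.73 in Mettl3 KO libraries, without overlap, so the covariate takes up part of the genotype contrast in every gene. The labels name the tissue as heart and do not say which chambers were taken, so more atrial tissue in a sample and more Sln per cell cannot be told apart.

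**Figure D3:**
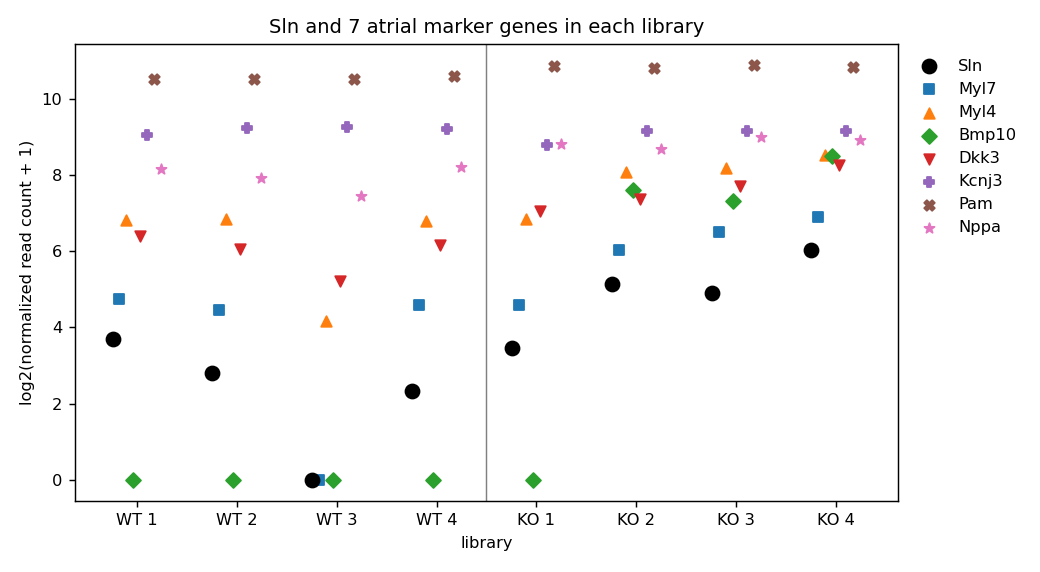
Sln (black circles) and 7 atrial marker genes in each of the 8 libraries as log2(normalized read count + 1). Sln, Myl7 and Myl4 are lowest together in WT replicate 3 and highest together in Mettl3 KO replicate 4, and Bmp10 is at 0 in the 4 WT libraries and Mettl3 KO replicate 1.

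Set against its homologue, Sln was at 0 to 0.00611 of the Pln normalized read count in WT and at 0.00447 to 0.0329 in Mettl3 KO libraries, with overlap. The log2 difference of 2.59 (SE 0.975) had an exact permutation p of 0.0571 (two-sided, adjusted over the 4 ratios 0.114). Recovered reads of Pln varied little between libraries, as given above.

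Sri (ENSMUSG00000003161, chromosome 5, 8096078 to 8119379, plus strand) was level between the genotypes within its spread. It had 275, 281, 300 and 277 across WT and 272, 296, 280 and 307 across Mettl3 KO libraries, interleaved throughout. The means of 283 ± 11.4 and 289 ± 15.7 (SD, n = 4 each) gave a log2 fold change of 0.03 with SE 0.06 (adjusted p = 0.873 by limma). The 95% confidence interval of -6.77% to 11.3% bounds the change more tightly than for Atp2a3, Atp2a1 and Sln. The intervals of Atp2a2 and Pln were narrower still in normalized read counts. Both of those genes lie near the limit on reads per base, where differences in reads are reduced. Their narrow intervals therefore cannot be read as tighter bounds on a change in transcript number. Relative to Atp2a2, Sri differed by 0.10 on the log2 scale (SE 0.0882, exact permutation p = 0.343, adjusted 0.457) and Atp2a3 by 0.04 (SE 0.134, exact permutation p = 0.8), both two-sided.

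**Figure D4:**
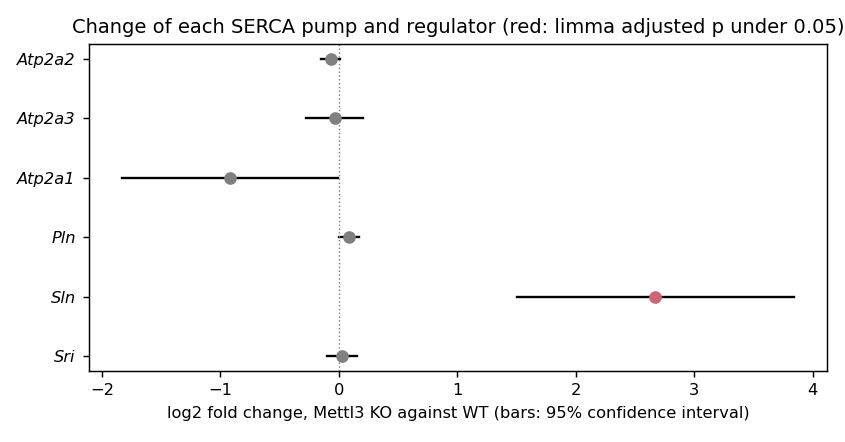
Log2 fold change of each gene in Mettl3 KO against WT hearts with its 95% confidence interval; red marks a limma adjusted p under 0.05. Sln at 2.67 passed the test, the intervals of Atp2a2, Atp2a3, Pln and Sri include 0, and that of Atp2a1 ends just below 0 before adjustment.

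Genes that varied most like each member within the genotypes were sought among 15553 genes with a mean of at least 5, as a description over 8 libraries. Pln was most like Malat1 (r = 0.998), Hspb7 (0.993) and Actc1 (0.991), and Atp2a2 most like Fam174b (0.989), Neu3 and Ms4a4d. The deviations of Pln and Atp2a2 correlated with each other at r = 0.969 and with the mean of the cardiomyocyte markers at 0.969 and 0.894, and all of these share the scaling factor described above. Atp2a3 was most like Scaf11, Pcyt1a and Zmiz2, Sln most like Gm44829, Gabpb2 and Nup160, and Sri most like Itga7, Zfp661 and Eipr1. Each of these 5 members had 43 to 94 genes above r = 0.9, so the names are the top of long lists. Atp2a1, with a mean under 5, was not compared.

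The genes around the pump were then followed in 6 lists of the pathway. Of 52 listed genes 51 were tested, Atp2c2 being not analysed here. Of the tested ones 10 passed the test (19.6%, against 7.91% of all tested genes), 5 higher and 5 lower. The lists were chosen with earlier results of these data known, and the shares were not matched for expression level. Their difference is therefore a description only. Without the mean-variance trend, 9 of these 10 calls were lost and that of Pef1 was kept. The median log2 fold change over the 51 was -0.02.

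Of the other small peptides that bind SERCA, 0 of 4 passed the test, a count too small to set against the 7.91% of all tested genes. Strit1, which encodes DWORF, a peptide that displaces phospholamban from the pump, had 41, 23, 45 and 20 across WT and 44, 54, 17 and 46 across Mettl3 KO libraries, a log2 fold change of 0.28 with SE 0.29 (adjusted p = 0.668 by limma). Values spread widely within each genotype, and without Mettl3 KO replicate 3 the log2 fold change was 0.64 (95% confidence interval 0.13 to 1.14, limma adjusted p = 0.155). Mrln, for the skeletal muscle inhibitor myoregulin, was at 6 to 12 in WT and 3 to 6 in Mettl3 KO, a log2 fold change of -0.72 with SE 0.35 (an unadjusted limma p of 0.0483 and an adjusted p of 0.238). 1810037I17Rik, the gene of another-regulin, was at 24 to 36 and 28 to 42. The endoregulin gene Smim6 was at 1 to 3 and 3 to 9, a log2 fold change of 0.95 with SE 0.42 (an unadjusted limma p of 0.035 and an adjusted p of 0.197), and most of its WT values lay under the level of 3 reads.

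Phospholamban loses its grip on the pump by phosphorylation and regains it through protein phosphatase 1. In the list of its kinases, phosphatases and their partners 1 of 14 passed the test, against 7.91% of all tested genes. Ppp1r3a, a targeting subunit that brings protein phosphatase 1 to glycogen and the SR, fell by 0.14 on the log2 scale with SE 0.04 (adjusted p = 0.0488 by limma). It had 1518, 1449, 1539 and 1445 across WT and 1469, 1327, 1324 and 1290 across Mettl3 KO libraries. Mettl3 KO replicate 1 lay within the WT range, and the call was lost in 11 of 20 alternative fits (limma adjusted p of 0.0532 to 0.981 in those). Hspb6, a heat shock protein that restrains phosphatase 1, was at 0.08 (limma adjusted p = 0.584), and Hax1, a partner of phospholamban, at 0.04 (adjusted p = 0.931). The kinases Prkaca and Camk2d were at -0.06 and -0.02 and did not pass.

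Proteins of the SR lumen and others that bind the pump held 5 of the 10 calls in the pathway. Of the 10 genes of this list 2 were higher and 3 lower, where 7.91% of all tested genes were called. In those 5 the genotypes did not overlap, against 11.5% of all tested genes. Both counts come from the same values, so the lack of overlap adds no separate support. Casq2, calsequestrin, the calcium store of the cardiac SR, had 918, 964, 919 and 935 across WT and 1192, 1091, 1121 and 1047 across Mettl3 KO libraries, a log2 fold change of 0.25 with SE 0.04 (adjusted p = 0.000697 by limma). Srl, sarcalumenin, a luminal calcium-binding glycoprotein that stabilizes SERCA2, had 1861, 1842, 1905 and 1881 against 2205, 2066, 2161 and 1956, a log2 fold change of 0.16 with SE 0.04 (adjusted p = 0.00988 by limma, and 0.0533 without Mettl3 KO replicate 3).

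The other 3 called genes of that list were lower. Canx, the chaperone calnexin, had 1253, 1202, 1274 and 1271 across WT and 1049, 996, 1060 and 1014 across Mettl3 KO libraries, a fall by 0.28 on the log2 scale with SE 0.04 (adjusted p = 7.69e-05 by limma). Calr, calreticulin, the main calcium-binding chaperone outside muscle, fell by 0.21 with SE 0.04 (adjusted p = 0.00378 by limma) and Tmx1, an ER thioredoxin-related protein, by 0.25 with SE 0.06 (adjusted p = 0.0113 by limma). Tmx1 lost its call without WT replicate 2 or 4 (limma adjusted p of 0.0518 and 0.0538) and, like Calr, with the atrial covariate (0.0905 and 0.176). Calr and Canx are made in every cell type, and markers of non-muscle cells moved as well, with 5 of 5 fibroblast markers higher (summed values 3080 to 3442 in WT and 3840 to 4490 in Mettl3 KO) and the endothelial markers lower as given above. Their part in these results was not tested. Hrc, a histidine-rich calcium-binding protein that joins SERCA2 and triadin, was at -0.01 (limma adjusted p = 0.932), with the dense reads given above, and S100a1, which raises SERCA2 activity, at 0.10 (adjusted p = 0.325).

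On the release side 3 of 12 genes passed the test, against 7.91% of all tested genes. Ryr2, the cardiac release channel, had 9731, 9666, 10427 and 9715 across WT and 9017, 8241, 8494 and 7975 across Mettl3 KO libraries, a fall by 0.23 on the log2 scale with SE 0.03 (adjusted p = 0.000137 by limma) without overlap. With the atrial covariate its log2 fold change was -0.085 (limma adjusted p = 0.242). Jph2, which anchors the SR to the T-tubule, had 719, 790, 746 and 754 against 843, 831, 892 and 814, a log2 fold change of 0.17 with SE 0.05 (adjusted p = 0.0241 by limma). This call was lost with the atrial covariate (limma adjusted p = 0.224) and without WT replicate 1, 3 or 4 or Mettl3 KO replicate 2 or 3 (0.0504 to 0.106). Ryr3, a minor release channel, had 23, 19, 11 and 23 against 21, 35, 42 and 60, a log2 fold change of 0.98 with SE 0.27 (adjusted p = 0.0248 by limma) with overlap at Mettl3 KO replicate 1, the library that overlapped for Sln. With the atrial marker level as covariate the log2 fold change of Ryr3 was -0.27 (limma adjusted p = 0.732), and the call was also lost with voom (0.0507) and without WT replicate 2 or 3 or Mettl3 KO replicate 2, 3 or 4 (0.0604 to 0.138). Trdn, triadin, which links calsequestrin to the channel, was at -0.10 (limma adjusted p = 0.165). This count is of the whole gene and does not tell its cardiac and skeletal muscle transcripts apart. By PCR, the study reported less of the cardiac and more of the skeletal muscle transcript in Mettl3 KO hearts.

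Routes of calcium out of the cytosol other than SERCA had 0 of 7 genes past the test, against 7.91% of all tested genes. Slc8a1, the sodium-calcium exchanger that competes with SERCA in each beat, had 2702, 2712, 2737 and 2670 across WT and 2934, 2773, 2865 and 2639 across Mettl3 KO libraries, a log2 fold change of 0.05 (limma adjusted p = 0.473). Atp2b1, a plasma membrane calcium pump, was the lowest in p, at 0.10 (limma adjusted p = 0.169), with no overlap of the genotypes. Among relatives of sorcin, the penta-EF-hand proteins, 1 of 4 passed, a count too small to set against that share. Pef1 had 44, 45, 41 and 47 across WT and 54, 60, 63 and 61 across Mettl3 KO libraries, a log2 fold change of 0.42 with SE 0.13 (adjusted p = 0.0434 by limma), a call lost in 12 of 20 alternative fits (0.0509 to 0.638 in those).

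**Figure D5:**
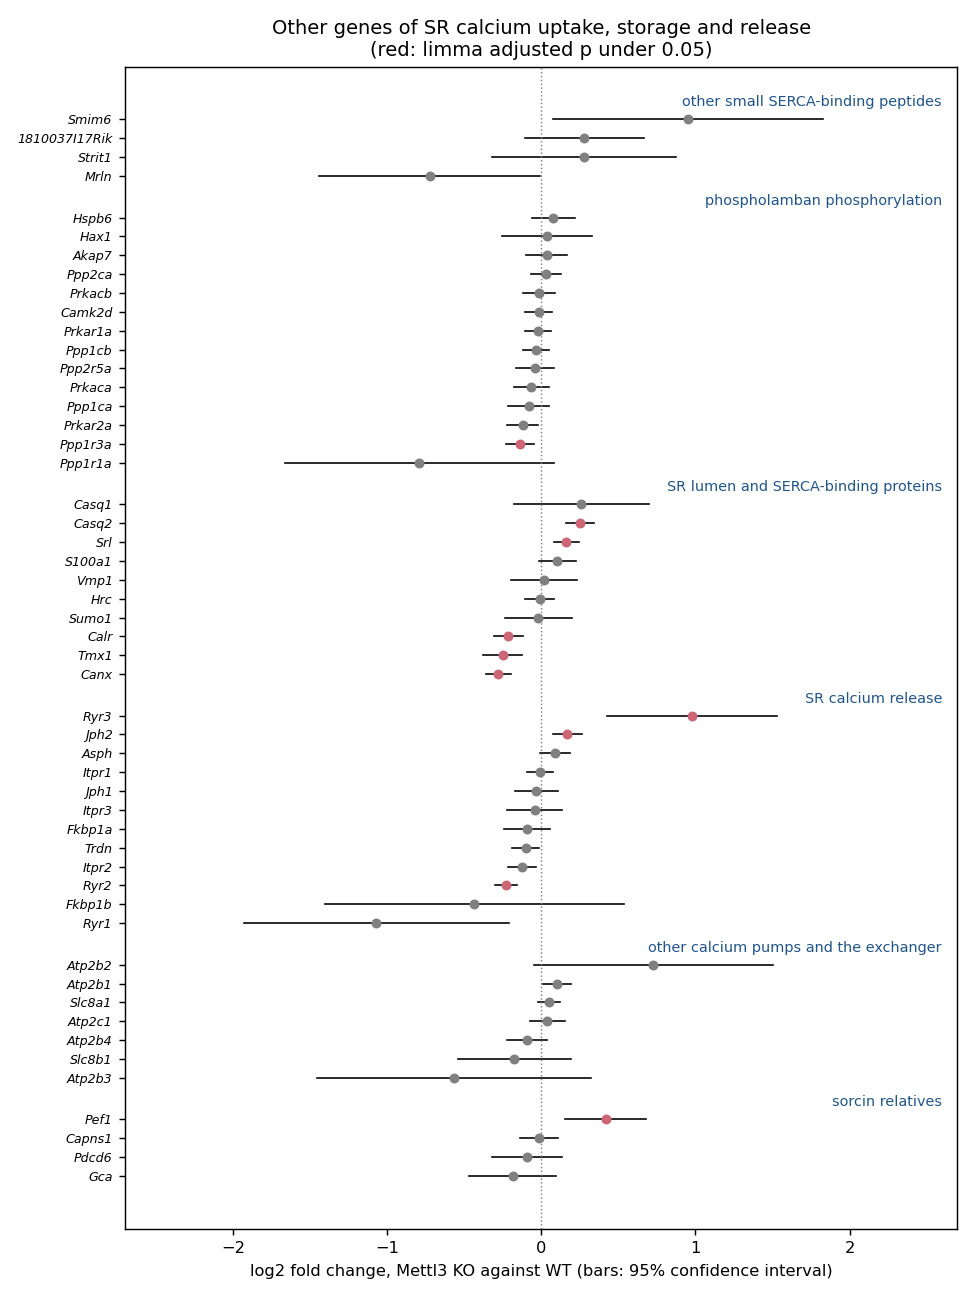
Log2 fold change in Mettl3 KO against WT hearts, with 95% confidence intervals, of the 51 other genes of SR calcium uptake, storage and release, by list; red marks a limma adjusted p under 0.05. The 5 red points among SR lumen and SERCA-binding proteins lie on both sides of 0, and the small peptides and the other pumps hold none.

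Since METTL3 acts on RNA, the transcripts of the 6 genes were searched for GGACT, the sequence in which m6A is most often placed, on the transcript strand only. The motif was read in the longest coding transcript of each gene in GENCODE M21, and 92.7% of 14384 genes hold it at least once, with a median of 1.05 per kilobase. Atp2a1 held 4, Atp2a3 5, Atp2a2, Sri and Sln 1 each and Pln-201 0. Atp2a2 had 0.223 per kilobase, and transcripts within 10% of its length held a median of 5. The single matches in Atp2a2, Sri and Sln, with 10 bases on each side, are shown because each of these transcripts carries only that one. Capitals mark the motif.
Atp2a2: atgggctcagGGACTgcagtggcta
Sri: ctcttatggaGGACTaaagtcccca
Sln: atgccatgagGGACTccctctctaa
In Atp2a2-201 the match starts at base 2705 of 4486, in the coding part. Those of Sri-202, at base 1525 of 2504, and Sln-201, at base 1277 of 1318, lie after the stop codon. Methylation was not measured in these libraries, and a match is a description of letters only.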

How the data were processed

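The authors trimmed reads with Trimmomatic 0.39, aligned them with STAR 2.7.11a to mm39 (Ensembl release 109), removed duplicate (Picard 3.1.1), multi-mapping, ribosomal and mitochondrial reads, and assigned stranded exonic reads to single genes with featureCounts 2.0.4. The deposited values are a score, DESeq2-normalized counts (version 1.36.0) rounded to whole numbers, which count models do not suit. All 8 sample columns were used, 0 were left out, and groups came from the labels. Each library's scaling factor was estimated by maximum likelihood from the spacing of low values, and reads were recovered as value divided by factor. Genes with a mean of at least 1 were tested in R 4.3.3 by limma 3.58.1 after a log2(value + 1) transform (two-sided, mean-variance trend, genotype the only term), with Benjamini-Hochberg adjustment over all genes tested. The log2(value + 1) scale understates changes of low genes. Ratios were tested by exact permutation. The estimate of the factors and the limma fit were tested on simulated data. Neither simulation held the limit on reads per base, and that of the fit changed no low gene such as Sln. Exon lengths and transcript sequences came from GENCODE M21, an earlier build, with none of its coordinates used.

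Named genes were Mettl3, the 6 members, list genes that passed the test, binding partners of a member, the gene of lowest p in a list without these, markers needed beside a member and the 3 genes most like each member. Prkaca, Camk2d, Slc8a1 and Smim6 were named after their values were seen. Members and lists were chosen with earlier results of these data known. Alternatives were other scalings, pseudocounts and filters, limma without the trend, voom, array weights, the replicate number as a block, an atrial covariate and each library left out.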

Additional observations from a re-analysis of the deposited data

Results flagged for a closer look

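Among 20 groups of 4 libraries examined (members and their ratios in either genotype), 1 held a library far from the others. The ratio of Pln to Atp2a2 in Mettl3 KO replicate 3, at 0.556, stood above the other Mettl3 KO libraries at 0.542 to 0.543, and its gap to the nearest was 0.928 of the group's range, above Dixon's 95% critical value for 4 libraries. Chance flags about 1 in 20 groups. Without that library the log2 difference of the ratio between genotypes was within the 0.15 to 0.16 found when each library was left out.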

How the results depend on the processing

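Atp2a1 kept its side of the threshold in the 19 alternative fits that tested it, and with a minimum mean of 10 it was not tested. Pln passed with quantile normalization (0.12), and relative to Atp2a2 by limma (0.16). Sln lost its call without the trend (2.67). With the atrial level as covariate Sln was at -0.15, Atp2a2 at 0.034, Atp2a3 at 0.33, Sri at -0.00388, Pln at 0.17 (95% confidence interval 0.038 to 0.30, not past the threshold), Strit1 at 0.81, Ryr3 at -0.27 and Ppp1r3a at 0.0050. Without 1 library each, Atp2a3 ranged from -0.14 to 0.033, Sri from -0.0030 to 0.055, the Atp2a3 to Atp2a2 ratio from -0.034 to 0.10, Atp2a2 from -0.10 to -0.035, Pln from 0.057 to 0.12, the Sri to Atp2a2 ratio from 0.032 to 0.16 and Strit1 from 0.082 to 0.64. The count of 1607 genes called was 321 without the trend, 870 with the atrial covariate (555 shared) and 1019 to 1596 without 1 library, lowest without Mettl3 KO replicate 3. Calls in the phospholamban phosphorylation list fell from 1 to 0 with pseudocount 5, without the trend, with the block and with the atrial covariate, and were 0 to 1 without 1 library. Among sorcin relatives they fell from 1 to 0 with equal sums, pseudocount 5, voom, the block and the covariate, and were 0 to 1 without 1 library. The SR lumen list had 0 calls without the trend. The SR release list had 0 without the trend and with the covariate, and 1 to 4 without 1 library, with 1 when WT replicate 3 or Mettl3 KO replicate 2 or 3 was left out. The cause of these shifts was not tested. Replicate numbers did not pair the samples (same-number correlations of -0.0414 to 0.0878), and a replicate block gave 1346 genes, Sln at 2.67 (limma adjusted p = 0.0147) and Pln at 0.09 (adjusted p = 0.318). Depth limits Atp2a1 and Sln. By their density, the limit on reads per base bears on Pln and Atp2a2, and it may bear less on Hrc, Srl, Casq2 and Ryr2. Of these, only Pln spread less within a genotype than counting error.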
